A study of Phyllostachys edulis with 2 samples.

Results

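Across the 2 transcriptomes of Moso bamboo (Phyllostachys edulis) rhizome lateral buds, 101 loci carried a protein description naming an aquaporin, a proton pump, a channel, an antiporter, a translocator or another transporter. They were found by words in that description, leaving out descriptions that name sucrose, auxin, mitochondria or ADP/ATP carriers, and they held 200 of 148492 transcripts and 101 of 85391 loci in the tables. Reads of the matching transcripts were summed for each locus, and the loci were sorted by substrate into 17 groups. The words also brought in 2 inorganic pyrophosphatases, 1 of them described as soluble and so not a transporter. The description of the other does not say whether it is soluble or in a membrane.

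Lateral buds on the underground rhizome are the origin of new bamboo shoots, and the study set the early shoot stage against the germination stage of such buds. Both groups were wild type, both were collected underground in the same growing season, and RNA was extracted from pooled buds, so that each stage was 1 library made from a pool. With 1 library for each stage no difference had a replicate check, no p-value could be given, and the intervals below cover the counting error of the reads only. In a whole bud, a lower transcript level in each cell and fewer cells of the type that makes the transcript cannot be told apart.

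Membrane transport sets the water and solute content of a plant cell. Aquaporins are membrane pores for water, in the plasma membrane (PIP proteins) or in the membrane of the vacuole (TIP proteins), and they are known to be abundant in tissues whose cells enlarge. Proton pumps make the gradient that antiporters and many uptake carriers use, and potassium, taken up by such carriers and held in the vacuole, is a main osmotic solute of growing cells.

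Reads in the tables numbered 7878826 in early shoot and 4481221 in germination. Members took 22947 reads in early shoot, which was 0.291% of that table, and 15317 reads in germination, which was 0.342%. A locus was called when its G-fold value, the bound of the log2 ratio of early shoot over germination that lies nearest 0 after the counting error is allowed for, was beyond 1 in either direction and its level exceeded 1 RPKM (reads per kilobase of transcript, scaled to the table total) in both libraries. A G-fold value of 0 says that the counts did not set the libraries apart. Knotted-type homeobox transcripts, which mark meristems, were present in both libraries with summed levels of 287 RPKM in early shoot and 297 RPKM in germination. Cyclins, looked up for dividing cells, were not level in the same way, with 59.0 RPKM in early shoot and 40.7 RPKM in germination. Chlorophyll a-b binding proteins reached 55.1 RPKM in early shoot and 33.4 RPKM in germination. The small subunit of RuBisCO, the other marker of green tissue, differed less, with 30.7 RPKM in early shoot and 28.6 RPKM in germination. Laccase had 1 read in each library. Cellulose synthases, enzymes of wall building, had 370 RPKM in early shoot and 757 RPKM in germination, and the part of tissue makeup in the values below was not tested.

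Of the 101 loci, 5 were called higher in early shoot and 7 higher in germination. The early shoot calls were the aquaporin Locus_4872, the aquaporin TIP1-1, 1 potassium transporter, 1 boron transporter and the calcium channel TPC1. The germination calls were 2 phosphate transporters, another potassium transporter, a vacuolar Na+/H+ antiporter, a heavy-metal P1B-ATPase, a cystine transporter and a glutamate/malate translocator. As shares, 4.95% of members were called higher in early shoot, against 1.21% of all loci, 3.45% of the loci whose description names a protein and 6.31% of the loci with at least 100 reads. In the germination direction the member share was 6.93%, against 2.9% of all loci, 5.92% of described loci and 9.77% of loci with at least 100 reads. Among the 47 members with at least 100 reads, 10.6% were called in the early shoot direction and 12.8% in the germination direction. Members held more reads than most loci, with a median of 75 reads against 13 over all loci, and a call needs reads, so these shares describe the members and set them apart from no other gene group.

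The G-fold value was above 0 in 18 loci, below 0 in 25 and 0 in 58. As shares, 17.8% of members were above 0 and 24.8% below, against 9.86% and 13.4% of all loci. Among members with at least 100 reads the shares were 27.7% above and 34.0% below. Over all loci with that many reads they were 37.3% above and 29.2% below. Only 91 of the loci passed the RPKM limit in both libraries, and 3 of the 10 that did not had G-fold values below -1 on 1 to 3 reads in early shoot. Summed over all members the log2 ratio was -0.23 (95% Clopper-Pearson interval -0.26 to -0.20), but the Na+/H+ antiporter Locus_486 decided its sign. Without that locus the members held 20973 reads in early shoot and 11159 in germination, and the ratio was 0.10 (0.06 to 0.13). The members thus had no common direction, and the description goes by substrate.

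**Figure D1:**
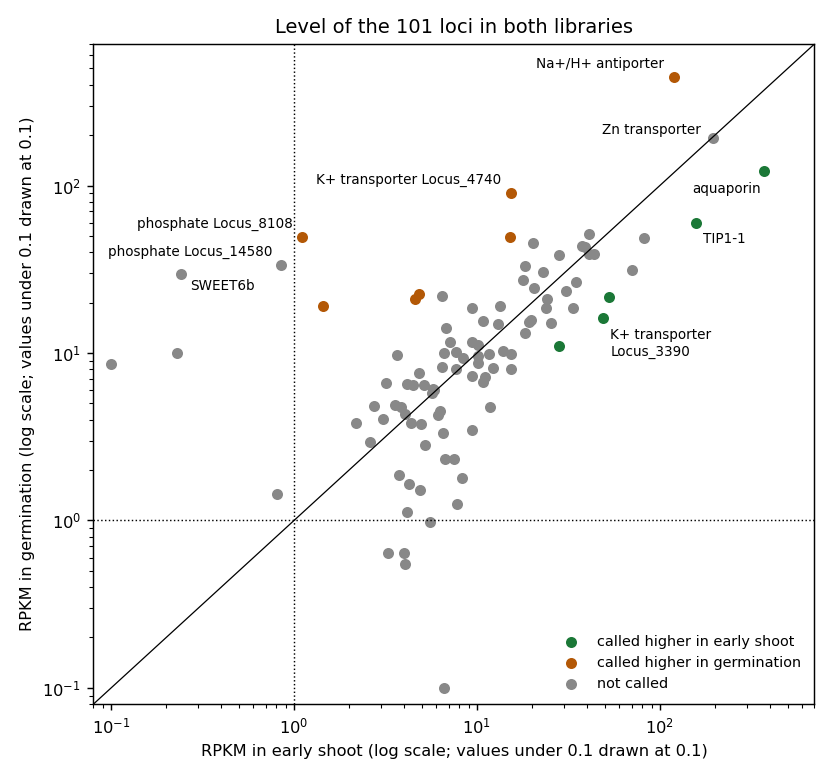
Summed RPKM of each of the 101 loci in early shoot (horizontal, log scale) and germination (vertical, log scale), with the diagonal marking equal levels and dotted lines the limit of 1 RPKM. The aquaporin Locus_4872 (372 RPKM in early shoot, 122 in germination) lies farthest right and the Na+/H+ antiporter (120 and 442) farthest up, on opposite sides of the diagonal.

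Water channels gave the clearest group on the early shoot side. Their 4 loci held 4776 reads in early shoot and 1024 in germination, a summed log2 ratio of 1.41 (1.31 to 1.51), and took 20.8% of the members' reads in early shoot against 6.69% in germination. G-fold values were above 0 in 3 of the 4 and 2 were called. Locus_4872, an aquaporin of the plasma membrane type with 1 transcript described as PIP1-2, had the highest level of all members in early shoot. It was read 2819 times in early shoot and 519 times in germination (372 and 122 RPKM), and its G-fold value of 1.47 was the largest of the members. All 4 of its transcripts were called on their own, with log2 ratios between 1.55 and 1.69. The vacuolar aquaporin TIP1-1 (Locus_5969), which lets water pass into the central vacuole, had 1492 reads in early shoot and 323 in germination (157 and 60.0 RPKM, G-fold 1.19), and 2 of its 3 transcripts were called.

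The remaining plasma membrane channels differed less. The plasma membrane intrinsic protein Locus_6290 had 311 reads in early shoot and 105 in germination (81.7 and 48.6 RPKM, G-fold 0.38) and was not called. PIP1-5 (Locus_3432) was read 154 times in early shoot and 77 times in germination, and its counts did not separate the libraries (log2 ratio 0.19, -0.22 to 0.60). These 4 loci therefore ranged from a called difference to none, with the 2 most abundant ones farthest apart between the stages.

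The proton pumps showed no such difference. All 3 loci encode subunits of the vacuolar H+-ATPase, which acidifies the vacuole, and all 3 had a G-fold value of 0. No member description named the proton pump of the plasma membrane. The proteolipid subunit c (Locus_10899), which forms the rotating ring in the membrane, had 128 reads in early shoot and 84 in germination (37.5 and 43.3 RPKM). Together the pumps were read 257 times in early shoot and 172 times in germination (log2 ratio -0.23, -0.52 to 0.05). The inorganic pyrophosphatases, which split the pyrophosphate released by biosynthesis, were also at 0, with Locus_732 read 116 times in early shoot and 56 times in germination.

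**Figure D2:**
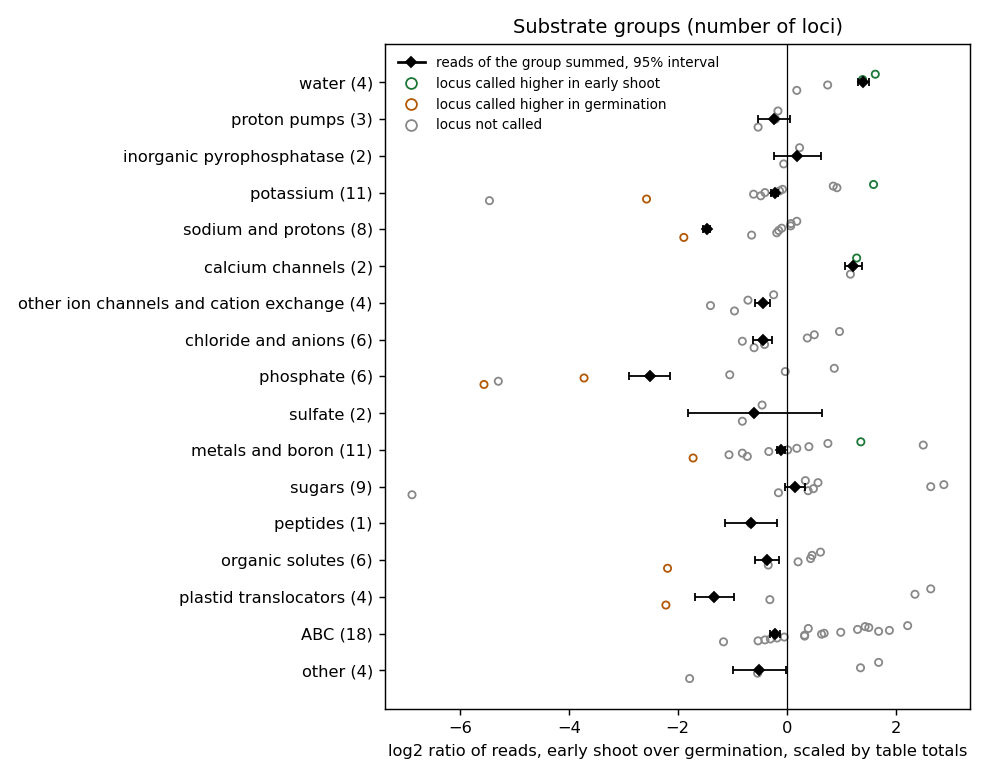
Log2 ratio of early shoot over germination (horizontal) for each substrate group, with diamonds for summed reads and their 95% Clopper-Pearson interval and open circles for single loci; 2 loci with no read in one library are not drawn. Water and calcium channels lie right of 0 at 1.41 and 1.23, while phosphate lies at -2.51 and sodium and protons at -1.47.

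Potassium transporters held called loci in both directions. The group had 11 loci with 3804 reads in early shoot and 2526 in germination, and the summed log2 ratio of -0.22 (-0.30 to -0.15) covered 1 call in each direction. Locus_3390, a potassium transporter described from rice, had 1365 reads in early shoot and 257 in germination (49.0 and 16.2 RPKM, G-fold 1.37). All 3 of its transcripts were called in the same direction. Locus_4740, described as the potassium transporter of the reed Phragmites, had 312 reads in early shoot and 1056 in germination (15.3 and 90.0 RPKM, G-fold -2.36). Its 7 transcripts were all called, with log2 ratios from -2.38 to -2.86.

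In RPKM, Locus_4740 was therefore the potassium transporter with the highest level in germination, while in early shoot that place belonged to Locus_3390. HAK4 (Locus_5067), of the high-affinity uptake family, had 706 reads in early shoot and 222 in germination and a G-fold value of 0.60, short of a call. The transporters Locus_1699, with 833 reads in early shoot and 519 in germination, and Locus_4456, with 478 and 378, stayed near 0 with G-fold values of 0 and -0.24. A high-affinity potassium transporter (Locus_77066) was read once in early shoot and 25 times in germination. Its G-fold value was -2.63, but its early shoot level of 0.23 RPKM kept it from a call. Locus_49834 was not read in early shoot and had 6 reads in germination (G-fold -0.92). Set against a floor of 3 reads this is a 3.52-fold difference, a value that does not allow for counting error. The 3 loci named for potassium channels, pores that let the ion pass along its gradient, had G-fold values of 0. They had only 64 reads in early shoot and 24 in germination. Of these, 50 and 15 belonged to Locus_29702, whose description names a channel beta subunit and not the pore itself.

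Sodium and proton antiporters are best described in 2 pieces. Vacuolar antiporters of this type exchange protons of the vacuole for sodium or potassium from the cytosol and so take part in both salt storage and pH control. Locus_486, with transcripts named as the vacuolar Na+/H+ antiporter and as the Na+/H+ exchanger of Phyllostachys edulis itself, had 1974 reads in early shoot and 4158 in germination (120 and 442 RPKM, G-fold -1.80). It held 8.60% of all member reads in early shoot and 27.1% in germination, and in germination it had the highest level of all members. Its 9 transcripts all lay below 0, and 7 of them were called.

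The transcripts of Locus_486 differed among themselves. Transcript 23, with 569 reads in early shoot and 552 in germination, had a log2 ratio of -0.77 (-0.94 to -0.60). Transcript 21, with 30 reads in early shoot and 256 in germination, had a log2 ratio of -3.91 (-4.50 to -3.36), so the intervals of these transcripts do not overlap. How reads shared by several transcripts of a locus were assigned is not given in the sources used here, and transcript levels depend on it. The other 7 loci of the group had G-fold values of 0 throughout, with 1027 reads in early shoot and 577 in germination (log2 ratio 0.02, -0.13 to 0.17). The largest of them, a sodium/hydrogen exchanger family protein (Locus_3304), had 516 reads in early shoot and 279 in germination. The group's sum of 3001 reads in early shoot and 4735 in germination (-1.47) was thus carried by 1 locus.

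Both calcium channel loci had G-fold values above 0, and 1 was called. Channels of the TPC type lie in the vacuolar membrane of plants and pass cations in response to voltage and cytosolic calcium. TPC1 (Locus_9183) had 814 reads in early shoot and 190 in germination (52.9 and 21.5 RPKM), and its G-fold value of 1.02 placed it just past the call limit. The two-pore calcium channel Locus_2085 had 831 reads in early shoot and 210 in germination (70.2 and 31.1 RPKM) and a G-fold value of 0.91, just short of it. It passed the limit with all transcripts of the locus (1.15) or only its most-read transcript (1.03). Their log2 ratios of 1.29 (1.06 to 1.52) and 1.17 (0.95 to 1.40) overlapped, so the limit falls between loci that these counts do not separate. Each has 6 matching transcripts, and every 1 of these 12 had a G-fold value above 0, although the sum of TPC1 was called while none of its transcripts was.

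Other ion channels and cation exchange stood on the opposite side. All 4 loci had G-fold values below 0 and none was called, and the group had 1033 reads in early shoot and 796 in germination (log2 ratio -0.44, -0.57 to -0.30). The mechanosensitive ion channel Locus_3690, of a family that opens under membrane tension, had 788 reads in early shoot and 529 in germination (41.2 and 51.2 RPKM, G-fold -0.05). The cyclic nucleotide and calmodulin-regulated channel Locus_4045 had 171 reads in early shoot and 189 in germination (G-fold -0.60). The vacuolar cation/proton exchanger 3 (Locus_3889), of a family that loads calcium into the vacuole, had 58 reads in early shoot and 54 in germination (G-fold -0.08). The DMI1-like channel Locus_22788, whose relatives in legumes act at the nuclear envelope in root symbiosis, had 16 reads in early shoot and 24 in germination (G-fold -0.33).

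Chloride and anion channels had 605 reads in early shoot and 468 in germination over 6 loci (log2 ratio -0.44, -0.62 to -0.27), with no call. Chloride channel 1 (Locus_3612), of the CLC family of anion channels and exchangers, had 339 reads in early shoot and 292 in germination (G-fold -0.33). The voltage-dependent anion channel (Locus_9725), a pore of the mitochondrial outer membrane that the search kept because its description does not name the organelle, had 203 reads in early shoot and 153 in germination (23.0 and 30.5 RPKM, G-fold -0.05). The remaining 4 loci had 40 reads or fewer over both libraries together and G-fold values of 0.

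**Figure D3:**
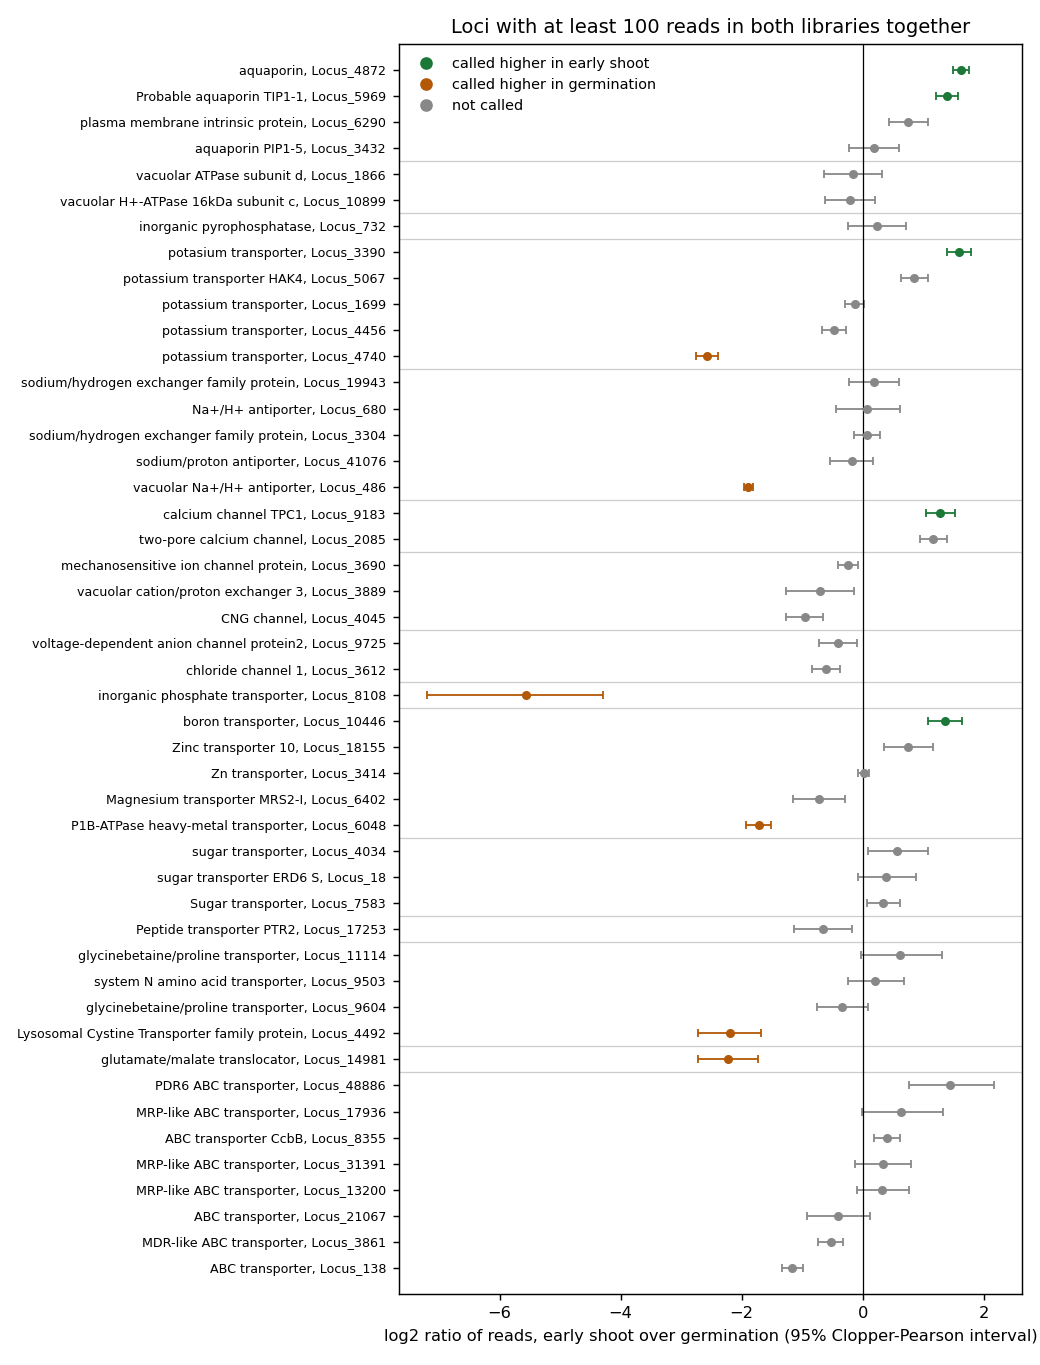
Log2 ratio of early shoot over germination (horizontal) for the 47 loci with at least 100 reads, with 95% Clopper-Pearson intervals, grouped by substrate from water at the top to ABC transporters at the bottom. Calls in early shoot reach 1.63 at the aquaporin Locus_4872, and calls in germination reach -5.56 at the phosphate transporter Locus_8108.

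Phosphate transporters had the lowest summed log2 ratio of the groups, on few reads. Proteins of these families bring inorganic phosphate into cells or move it between compartments. The 6 loci had 81 reads in early shoot and 263 in germination (log2 ratio -2.51, -2.89 to -2.15), and 4 had G-fold values below 0. The ratio was -1.58 without Locus_8108 and -1.52 with all transcripts of each locus. In that last setting phosphate was not the lowest, because the loci that fitted no group lay at -1.83. The inorganic phosphate transporter Locus_8108 was read 5 times in early shoot and 134 times in germination (1.10 and 49.3 RPKM), and its G-fold value of -4.14 was the lowest of all members. With 1.10 RPKM in early shoot it passed the level limit narrowly, and neither of its 2 transcripts would have passed alone. Locus_39620 had 2 reads in early shoot and 15 in germination and was called with a G-fold value of -1.45.

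Another such locus, Locus_14580, was read 3 times in early shoot and 67 times in germination (0.85 and 33.5 RPKM, G-fold -3.50) and missed the call by its early shoot level alone. The probable anion transporter 5 (Locus_24293) had 23 reads in early shoot and 27 in germination (G-fold -0.10). The other 2 phosphate loci were at 0, among them the putative phosphate transporter 2 (Locus_12773) with 29 reads in early shoot and 9 in germination. With all transcripts, Locus_12773 had 121 reads in early shoot and 28 in germination (G-fold 0.61), on the side opposite to the group's sum. Near absence of reads in early shoot was thus seen at 3 of the 6 loci and not across the group. Whether these 3 loci are parts of 1 gene was not tested. The 2 sulfate transporters had 14 reads in early shoot and 12 in germination, and their summed log2 ratio of -0.59 (-1.81 to 0.65) lay above the interval of the phosphate sum.

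Carriers of metals and boron had 3916 reads in early shoot and 2381 in germination over 11 loci, with a log2 ratio of -0.10 (-0.17 to -0.02) and 1 call in each direction. The zinc transporter Locus_3414 carried most of these reads, 2640 in early shoot and 1483 in germination, and its levels of 196 and 193 RPKM did not differ beyond counting error (log2 ratio 0.02, -0.07 to 0.11). It was second among members in both libraries. Zinc transporter 10 (Locus_18155), of the ZIP uptake family, had 205 reads in early shoot and 69 in germination (G-fold 0.29). The boron transporter Locus_10446, whose relatives export borate from cells toward the wall and the xylem, had 601 reads in early shoot and 133 in germination (28.0 and 10.9 RPKM, G-fold 1.04). Borate cross-links pectin in growing walls. The 7 transcripts of this locus had log2 ratios from 0.41 to 2.05, and 1 was called.

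The P1B-ATPase Locus_6048, of a family of pumps that move zinc, copper or cadmium across membranes, had 288 reads in early shoot and 539 in germination (15.1 and 49.1 RPKM, G-fold -1.47). All 6 of its transcripts lay on the germination side and 3 passed the call limit. The magnesium transporter MRS2-I (Locus_6402) had 98 reads in early shoot and 92 in germination (G-fold -0.24). Nramp3 (Locus_28235), of a family that moves iron and manganese, had 27 reads in early shoot and 32 in germination (G-fold -0.19).

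Sugar carriers had 722 reads in early shoot and 368 in germination over 9 loci (log2 ratio 0.16, -0.02 to 0.34), with G-fold values above 0 in 3, below 0 in 1 and no call. Without the SWEET proteins the ratio was 0.40 (0.21 to 0.60) over 6 loci, of which Locus_7583 had the most reads, 368 in early shoot and 165 in germination (G-fold 0.03). SWEET proteins let sugars pass both ways across membranes, and their 3 loci did not share a direction. SWEET6b (Locus_8585) was read once in early shoot and 67 times in germination (0.24 and 29.7 RPKM, G-fold -4.11) and missed a call by its early shoot level. Both loci described as SWEET15 leaned the other way on few reads. Locus_21999 had 13 reads in early shoot and 1 in germination (G-fold 0). Locus_86578 had 10 reads in early shoot and none in germination (G-fold 0.13). Against a floor of 3 reads it was 1.90-fold higher in early shoot, without allowance for counting error.

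Carriers of organic solutes included 1 call in 6 loci. The lysosomal cystine transporter family protein (Locus_4492), whose animal relatives export cystine from lysosomes, had 44 reads in early shoot and 114 in germination (4.59 and 20.9 RPKM, G-fold -1.60). The other 5 were at 0, among them the glycinebetaine/proline transporter Locus_9604, a carrier of compatible solutes, with 114 reads in early shoot and 82 in germination. The peptide transporter PTR2 (Locus_17253) had 79 reads in early shoot and 71 in germination (G-fold -0.11). No member description named a nitrate or ammonium carrier.

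Plastid translocators likewise had 1 call, at the glutamate/malate translocator Locus_14981, which in other plants exchanges these acids across the plastid envelope during ammonium assimilation. It had 48 reads in early shoot and 127 in germination (4.82 and 22.4 RPKM, G-fold -1.66). The triose phosphate/phosphate translocator Locus_5999, described from non-green plastids and of a family that exchanges sugar phosphates for phosphate across the plastid envelope, had 44 reads in early shoot and 31 in germination and a G-fold value of 0. The glucose-6-phosphate/phosphate translocator Locus_1810, which feeds starch synthesis in plastids without photosynthesis, had 11 reads in early shoot and 1 in germination, also at 0. Most reads of both loci lay in transcripts without a matching description. With all transcripts, Locus_5999 had 599 reads in early shoot and 618 in germination (G-fold -0.67). Locus_1810 then had 1684 and 606 (G-fold 0.50). The group's log2 ratio was -1.33 over matching transcripts and -0.05 with all transcripts.

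ABC transporters, pumps driven by ATP that move lipids, hormones and secondary metabolites, were the largest group and had no call in 18 loci. They had 2249 reads in early shoot and 1489 in germination (log2 ratio -0.22, -0.31 to -0.12), with G-fold values above 0 in 5 loci and below 0 in 2. Locus_138 had the most reads, 458 in early shoot and 582 in germination (20.3 and 45.5 RPKM), and its G-fold value of -0.95 was the closest to a call. The sum over matching transcripts follows that locus: without it the log2 ratio was 0.17. With all transcripts of each locus the group's log2 ratio was -0.81. The MDR-like Locus_3861 had 425 reads in early shoot and 348 in germination (G-fold -0.28). With all transcripts of that locus the G-fold value was -1.30, past the call limit. The 3 loci whose descriptions name the PDR group, which in other plants export wall and surface lipids and terpenoids, all had G-fold values above 0, with 189 reads in early shoot and 40 in germination between them. The 5 MRP-like loci, relatives of vacuolar pumps for conjugated compounds, were all at 0, with 372 reads in early shoot and 167 in germination.

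The last 4 loci fitted no group. MATE transporter 2 (Locus_2557), of a family that exports organic acids and metabolites by antiport, had 23 reads in early shoot and 45 in germination (G-fold -0.93). An antiporter of the major facilitator superfamily (Locus_48913) had 34 reads in early shoot and 6 in germination (G-fold 0.28). The other 2 were at 0. Among them, Locus_10856 had 17 reads in early shoot and 14 in germination, and its description names both a pseudouridylate synthase and a transporter.

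**Figure D4:**
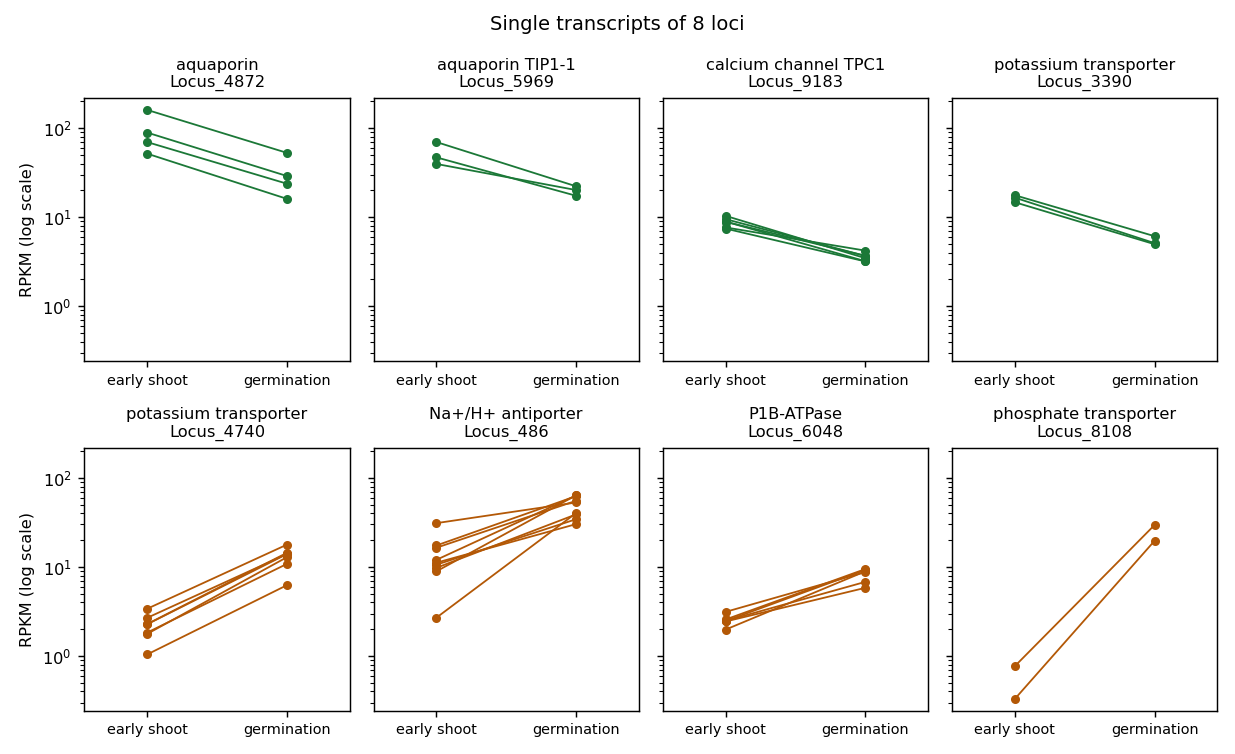
RPKM (log scale) of each matching transcript of 8 loci in early shoot (left) and germination (right), with a line joining the values of 1 transcript. Every transcript drawn has the direction of its locus, from the 4 aquaporin transcripts of Locus_4872 to the 9 of the Na+/H+ antiporter, whose log2 ratios spread from -0.77 to -3.91.

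Among the members, 33 loci had more than 1 matching transcript, and in none of them did transcripts have G-fold values on opposite sides of 0. As single transcripts, 44 of the 200 were above 0 and 54 below, with 11 called in early shoot and 20 in germination. Most of these 20 were transcripts of Locus_4740 and Locus_486. The share called over all transcripts was not computed, so these counts have no background and are not read as a direction of the members. In 40 loci other transcripts lacked a matching description. When these were added, 92 of the 101 loci kept the same side and the other 9 moved from 0 to one side, none to the opposite side.

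Transport proteins that the search words leave out were counted beside the members. Their 18 loci, among them sucrose carriers, amino acid permeases and mitochondrial carriers, had 1976 reads in early shoot and 1219 in germination (log2 ratio -0.12, -0.22 to -0.01). The phospholipid-transporting ATPase Locus_1084 held 511 of these reads in early shoot and 483 in germination (G-fold -0.52). The median log2 ratio over the 18 loci, with 1 read added, was 0.24, so sum and median had opposite signs. G-fold values were above 0 in 1, below 0 in 4 and 0 in 13, and 2 loci were called higher in germination. Over all loci 2.9% were called in that direction, and 9.77% of those with at least 100 reads, and 18 loci are too few to compare with these shares. One was a mitochondrial 2-oxoglutarate/malate carrier (Locus_36396) with 5 reads in early shoot and 45 in germination (G-fold -2.50). The other was ureide permease 2 (Locus_17680), of a family that carries purine breakdown products, with 5 reads in early shoot and 25 in germination (G-fold -1.58).

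Known regulators of pumps and channels were counted as well. The 14-3-3 proteins bind and activate the plasma membrane proton pump, and calcineurin B-like proteins with their kinases control potassium channels and sodium antiporters. Their 19 loci had 5151 reads in early shoot and 3154 in germination (log2 ratio -0.11, -0.17 to -0.04), with 2 above 0 and 7 below 0. The 1 locus called higher in germination, against 2.9% of all loci, was a 14-3-3 homologue (Locus_1147). It had 122 reads in early shoot and 188 in germination (G-fold -1.05). The 14-3-3 locus with most reads, 14-3-3E (Locus_1357), had 2979 reads in early shoot and 1490 in germination (G-fold 0.08).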

How the data were processed

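RNA from pooled buds was sequenced as 1 library for each stage. The authors merged or trimmed the read pairs and mapped them to the draft bamboo genome with unique placement. The submitters' processing notes name TopHat2 2.0.8b and Cufflinks 2.2.1, and the program that counted reads is not given in the sources used here. The deposited tables give, for each transcript, a length, a whole-number read count, an RPKM value made by the authors from that count and the table total, and a protein description. Their 85391 loci are more than the genes counted in the paper, and the median transcript length was 329. How these loci were built and named is not given in the sources used here. Whether loci with like descriptions are parts of 1 gene was not tested, and they were counted apart. Members and lists were chosen with earlier results of these data known.

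Counts and RPKM of matching transcripts were summed for each locus in Python 3.11.15 (pandas 2.3.3, SciPy 1.17.1). Libraries were scaled by table totals, as the RPKM are, a ratio of 1.76 of early shoot over germination. The G-fold value followed the method the study names, rewritten here: the 0.01 quantile nearest 0 of the log2 ratio of 2 Poisson rates, with 1 added to each count, checked on simulated data. Log2 ratios used the counts as deposited, with 95% Clopper-Pearson intervals, and a locus at 0 reads was set against a floor of 3 reads. TMM factors came from edgeR 4.0.16 (R 4.3.3).

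Groups were assigned by words of the description. Triose phosphate, glucose-6-phosphate and glutamate/malate translocators went to the plastid group. Zinc was taken before other cations. Glycinebetaine/proline, cystine and dicarboxylate carriers went to organic solutes. Nucleoporins, ubiquitin carriers and secretory carriers were dropped from the related lists. Named were the called loci, the locus with most reads and with the highest RPKM in each group, the loci next to the call limit, and transcripts that differ in side. Other loci named were chosen after their values were seen. Alternatives changed the scaling, the transcripts summed, the quantile, the limits, the measure of change and the depth. Markers named in no description (PCNA, histone H4) were not analysed here, and genome positions and sequences were not used here.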

Additional observations from a re-analysis of the deposited data

How the results depend on the processing

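The count of 5 loci called higher in early shoot became 14 with a plain log2 ratio with 1 read added, 14 with log2(RPKM + 1), 15 with log2(RPKM + 0.1), 9 at a threshold of 0.5, 0 at a threshold of 2.0 and 11 over single transcripts. The count of 7 called higher in germination became 12 with the plain ratio, 12 with log2(RPKM + 0.1), 2 at a threshold of 2.0 and 20 over single transcripts. The other of the 17 alternatives for these counts, the scalings among them, stayed within 1.5 times. The summed log2 ratio of -0.23 was -0.19 scaled by the median ratio over loci, -0.18 scaled by the upper quartile and -0.077 as the median over loci. It turned to 0.14 with all transcripts of each locus, 0.041 with the matching transcript with most reads and 0.10 without Locus_486. With all transcripts but without Locus_18, an alternative chosen after seeing the data, it was -0.21.

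Among the groups, leaving out the locus with most reads turned ABC transporters to 0.17, plastid translocators to 0.14, sodium and protons to 0.018 and the unsorted loci to 0.63. The median over loci turned ABC transporters to 0.50, organic solutes to 0.28, plastid translocators to 0.59 and the unsorted loci to 0.19, and the most-read transcript turned potassium to 0.062. The directions of the water, calcium channel and phosphate groups held under every alternative run, although the phosphate value moved to -1.52 with all transcripts and to -1.58 without Locus_8108. Of the 12 called loci, 7 kept the call under every alternative run for single loci. With only the most-read transcript, Locus_486 (-0.57), Locus_8108 (its level), TPC1 (0.79) and the boron transporter (0.74) lost it, and Locus_39620 lost it after the early shoot reads were thinned (-0.64). Among the loci followed singly, calls were gained by the two-pore channel Locus_2085 (1.15 with all transcripts, 1.03 with the most-read one), Locus_2557 (-1.78 with all transcripts, -1.17 at a quantile of 0.05) and Locus_138 (-1.01 at that quantile). Loci not followed singly gained calls too. Locus_3861 did so with all transcripts (-1.30). At a quantile of 0.05 the early shoot count was 6, although Locus_2085 stayed short of the limit there (0.99). For the reversals, losses and gains the cause was not tested.

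No paired analysis was possible because each stage has 1 library. Depth limits the 54 members under 100 reads, of which 40 had a G-fold value of 0: differences as large as those of SWEET6b (-4.11) or Locus_14580 (-3.50) were seen at that depth, and a value of 0 does not show that smaller ones were absent.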

Other observations

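Locus_18, counted among the sugar carriers for 2 transcripts described as the ERD6 sugar transporter, holds 628 transcripts in all. The matching ones had 127 reads in early shoot and 55 in germination, while the whole locus had 52774 reads in early shoot and 21816 in germination. Its transcripts carry descriptions of unrelated proteins, so the locus is not a single gene.

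In 19 of the 101 loci the transcripts without a matching description held more than 50% of the locus's reads, and 2 of these loci are described in this section. The whole locus of MATE transporter 2 (Locus_2557) had 513 reads in early shoot and 1134 in germination, against 23 and 45 in its matching transcript. The whole locus of the MDR-like transporter Locus_3861 had 1734 reads in early shoot and 2603 in germination, against 425 and 348.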
